A study of Homo sapiens with 24 samples.

Results

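The genes that duplicate DNA were followed in LNCaP, a human prostate cancer line that responds to androgens, after chemical inhibition or siRNA knockdown of O-GlcNAc transferase (OGT). OGT attaches single N-acetylglucosamine residues to serine and threonine of nuclear and cytosolic proteins. The set held 56 genes of origin licensing, origin firing, the replication fork and deoxynucleotide supply. It was chosen by function, with earlier results of these data known, and 55 of its genes were among the 10345 tested. A gene was measured when a probe of its symbol was detected (p under 0.01) on 3 or more of the 24 arrays, and the brightest such probe stood for it. All 56 had a probe on the platform and 55 passed. The exception was CLSPN, the fork adaptor claspin, whose 1 probe was detected on 0 of 24 arrays.

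LNCaP cells in RPMI medium with 10% fetal bovine serum were plated directly onto the agents and collected after 12 or 24 hours. The 4 treatments were ST045849, a small-molecule OGT inhibitor, its vehicle, an siRNA against OGT (siOGT), and a scrambled siRNA. Each of the 8 groups of treatment and time held 3 arrays, which the submitters called biological replicates, and all cells were of 1 line. No dose of the compound or of the siRNAs was known here. Arrays had median raw intensities of 102 to 126, with 29.6% to 34.3% of probes detected. Of 9 luminal prostate markers, 7 had a named probe here and all 7, KLK3 and HOXB13 among them, were detected on all 24 arrays. Of 10 markers of basal, stromal, immune, endothelial and neuroendocrine cells, 9 had a named probe and 0 were detected. The knockdown check was the OGT transcript, which fell to 30.7% of scrambled at 12 hours and 28.1% at 24 hours. By array the OGT log2 level was 7.32, 7.55 and 6.71 with siOGT at 12 hours, and 6.76, 7.82 and 6.60 at 24 hours. With scrambled it was 8.76, 8.95 and 8.99, and then 8.96, 8.61 and 9.10. The knockdown was thus uneven, and least on siOGT replicate 2 at 24 hours. OGT protein was not measured on these arrays.

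DNA replication starts at origins that the origin recognition complex marks in G1 phase, where CDC6 and CDT1 load the ring-shaped MCM2-7 helicase in an inactive form. In S phase the kinase CDC7 with its activator DBF4, together with MCM10, CDC45 and the GINS complex, turns the ring into a moving helicase. Primase and DNA polymerases then copy both strands behind it, with PCNA as the sliding clamp and RFC as its loader. Transcription of many of these genes is switched on by E2F factors as cells enter S phase, so that their mRNA levels in a culture are known to follow how many cells are cycling. In these bulk samples, fewer cells in S phase and less RNA per cell cannot be told apart.

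Promoters are shown first because E2F-type letters, a property that the choice of the genes did not use, were more frequent in them than in the promoter table as a whole. RefSeq start sites of GRCh38.p14 gave a promoter for 49 of the 56 genes, taken as 250 bases before to 50 after the start. The E2F-type letters searched were TTTCCCGC, TTTCGCGC, TTTGGCGC and TTTGCCGC on both strands, and matches may overlap. They occurred in 25 of 49 members (51.0%), against 1090 of 27305 genes in the table (3.99%) and 584 of 8425 genes tested on the arrays (6.93%). The CCAAT box, searched as CCAAT on both strands, was in 30 members (61.2%), against 39.7% of all genes and 44.5% of the tested genes. The E-box CACGTG, which MYC with its partner MAX is known to bind, was in 7 members (14.3%), against 8.77% of all genes and 13.1% of the tested genes. The cell-cycle element CHR, searched as TTTGAA or TTCGAA on both strands, was in 4 members (8.16%), against 19.5% of all genes and 15.4% of the tested genes. The 6 promoters below belong to members with the smallest p at 24 hours among those with an E2F-type match upstream, and stop at the base before the start. Capitals mark the E2F-type matches that end before the start, and MCM6 holds 4 of them as overlapping pairs. Coordinates are on GRCh38.p14 and each sequence is written along the gene's own strand.
DTL, chr1:212035598-212035747, plus strand: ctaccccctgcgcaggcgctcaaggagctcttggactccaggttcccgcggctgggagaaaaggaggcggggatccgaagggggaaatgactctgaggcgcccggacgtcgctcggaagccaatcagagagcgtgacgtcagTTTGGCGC
MCM6, chr2:135876444-135876693, minus strand: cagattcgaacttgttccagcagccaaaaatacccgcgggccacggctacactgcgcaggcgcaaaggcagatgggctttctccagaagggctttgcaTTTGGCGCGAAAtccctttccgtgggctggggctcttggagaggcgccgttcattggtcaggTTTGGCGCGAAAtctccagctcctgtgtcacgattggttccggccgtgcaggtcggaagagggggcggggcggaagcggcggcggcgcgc
GINS2, chr16:85688955-85689104, minus strand: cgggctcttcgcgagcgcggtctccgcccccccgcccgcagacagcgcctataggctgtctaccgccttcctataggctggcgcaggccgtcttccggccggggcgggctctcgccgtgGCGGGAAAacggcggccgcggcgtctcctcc
MCM3, chr6:52284743-52284992, minus strand: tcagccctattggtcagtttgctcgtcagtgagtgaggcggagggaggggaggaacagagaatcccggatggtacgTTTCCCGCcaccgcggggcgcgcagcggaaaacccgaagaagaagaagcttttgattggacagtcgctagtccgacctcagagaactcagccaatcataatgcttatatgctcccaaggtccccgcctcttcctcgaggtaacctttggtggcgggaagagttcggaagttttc
PCNA, chr20:5126623-5126772, minus strand: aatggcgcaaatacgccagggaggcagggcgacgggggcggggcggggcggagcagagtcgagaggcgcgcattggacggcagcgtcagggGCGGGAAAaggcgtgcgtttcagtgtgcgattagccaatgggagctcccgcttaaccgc
MCM7, chr7:100101398-100101647, minus strand: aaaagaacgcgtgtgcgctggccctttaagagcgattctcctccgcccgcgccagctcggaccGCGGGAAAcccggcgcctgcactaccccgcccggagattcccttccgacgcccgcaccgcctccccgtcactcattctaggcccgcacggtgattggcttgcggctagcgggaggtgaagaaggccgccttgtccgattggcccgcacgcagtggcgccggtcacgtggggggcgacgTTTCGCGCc

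Of the matches that end before the start, the nearest begins 8 bases before it in DTL, 31 in GINS2 and 59 in PCNA. In MCM7, MCM6 and MCM3 this distance is 9, 86 and 174 bases. The window of MCM3 holds 2 matches, of which 1 ends before the start. A match is a run of letters, and whether a factor binds there was not measured.

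With ST045849 most of the replication genes fell, at both times. At 12 hours 39 of 55 were lower than with vehicle and 0 were higher by limma at an adjusted p under 0.05, where 5.28% of all genes were lower and 5.73% higher. At 24 hours 48 of 55 were lower and 0 were higher, where 10.7% of all genes were lower and 13.6% higher. The median change of the 55 was -0.68 on the log2 scale at 12 hours and -0.92 at 24 hours, and that of all genes was 0.00 and 0.03. A fall of at least 1.5-fold was called for 33 members at 12 hours (1.98% of all genes) and for 38 at 24 hours (4.64%). The 3 ST045849 arrays all lay below the 3 vehicle arrays for 45 members at 12 hours (14.8% of all genes) and for 49 at 24 hours (17.5%). The changes ran from -1.23 for DTL to 0.12 for DBF4 at 12 hours, and from -1.62 for RRM2 to 0.12 for POLE at 24 hours. Over the 55 members, the changes at 12 and at 24 hours, which share no array, correlated at r = 0.845 (Spearman 0.812). These points are genes that share probes and probe composition between the times, and they are no independent replicates. The 12-hour count rested on the arrays numbered 3: 20 members were called without vehicle replicate 3 (2.17% of all genes lower) and 19 without ST045849 replicate 3 (2.29%). When only the groups compared entered the fit, 26 of the 39 stayed called at 12 hours and 44 of the 48 at 24 hours. Without background correction all 39 and all 48 were called, but 10 and 13 of them changed by over 1.5 times less on the log2 scale.

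**Figure D1:**
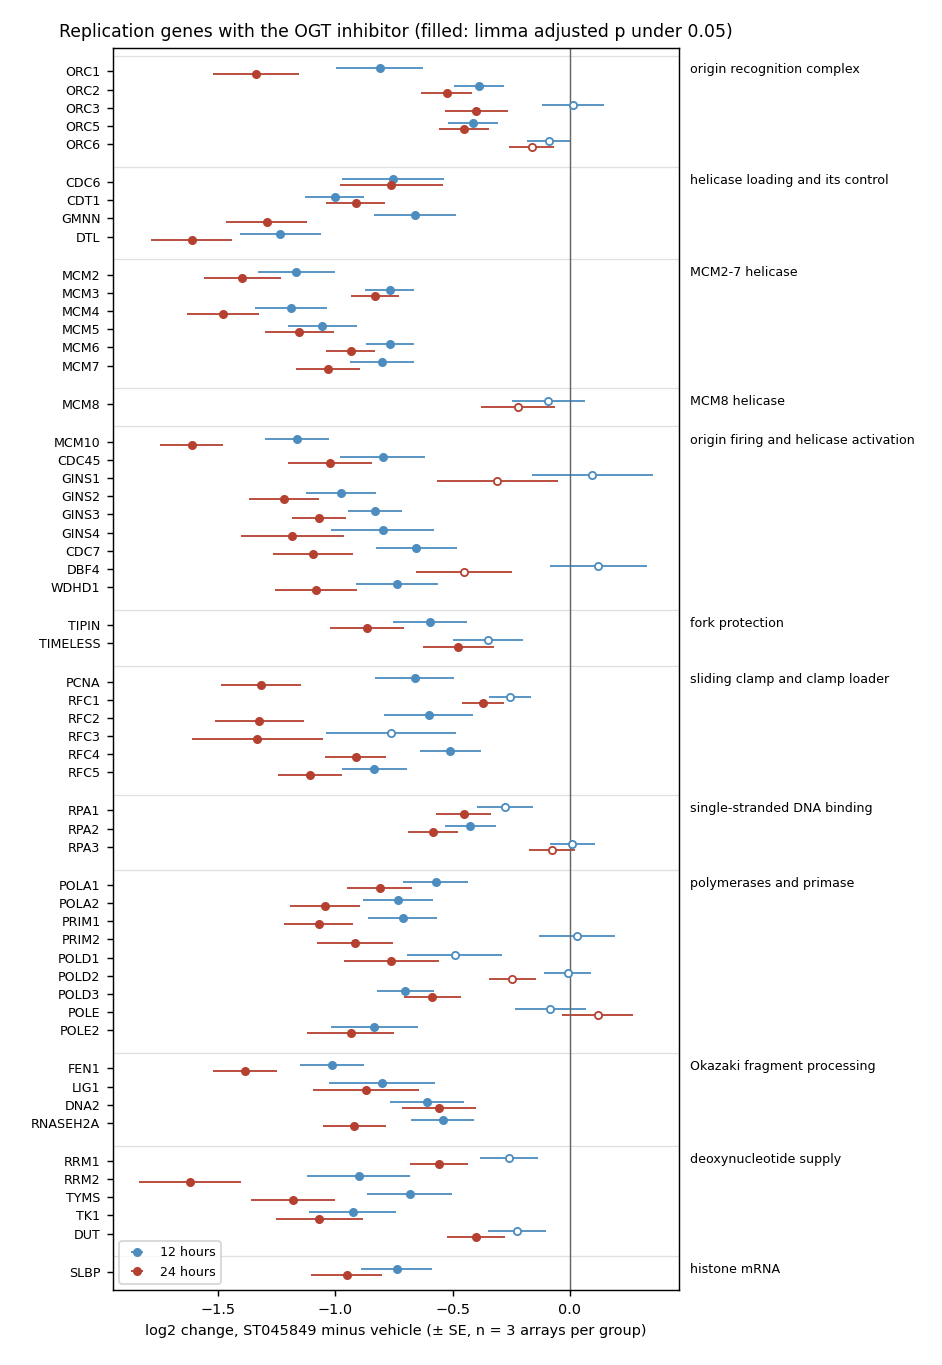
Each row is a replication gene, ordered by role; points give the log2 change with ST045849 against vehicle at 12 hours (blue) and 24 hours (red), bars the standard error, and filled points a limma adjusted p under 0.05 (n = 3 arrays per group). The points lie left of 0 for 50 of 55 genes at 12 hours and 54 of 55 at 24 hours.

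The arrays fell into 2 sets of 12 that the labels do not name. They were taken from the first principal component of the vehicle arrays in an earlier look at these data, and hold, for each treatment, replicate 3 at 12 hours and replicates 1 and 3 at 24 hours (set 1) against the rest (set 2). Each comparison within a time has both sets on both sides, whereas the times hold the sets in unequal numbers. Within set 1 the median change of the members with ST045849 was -1.07 at 12 hours (1 array against 1) and -1.11 at 24 hours (2 against 2). Within set 2 it was -0.46 at 12 hours (2 against 2) and -0.52 at 24 hours (1 against 1). The falls were thus larger in value in set 1 than in set 2 at either time, and 50 to 54 of 55 members were lower in value in each of these 4 comparisons. The vehicle arrays that defined the sets also enter these differences, so the gap between the sets is no independent result.

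The single arrays show the same split. Set against the gene's mean over the 12 vehicle and scrambled arrays, the median member was at -0.59, -0.52 and -0.90 on ST045849 replicates 1, 2 and 3 at 12 hours, and at -1.06, -0.67 and -1.01 at 24 hours. On the other 18 arrays it lay between -0.17 and 0.12. No array of another treatment reached the least affected ST045849 array. Among the vehicle arrays, from which the sets were drawn, the median member was at 0.10 to 0.12 in set 1 and at -0.17 to -0.09 in set 2.

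**Figure D2:**
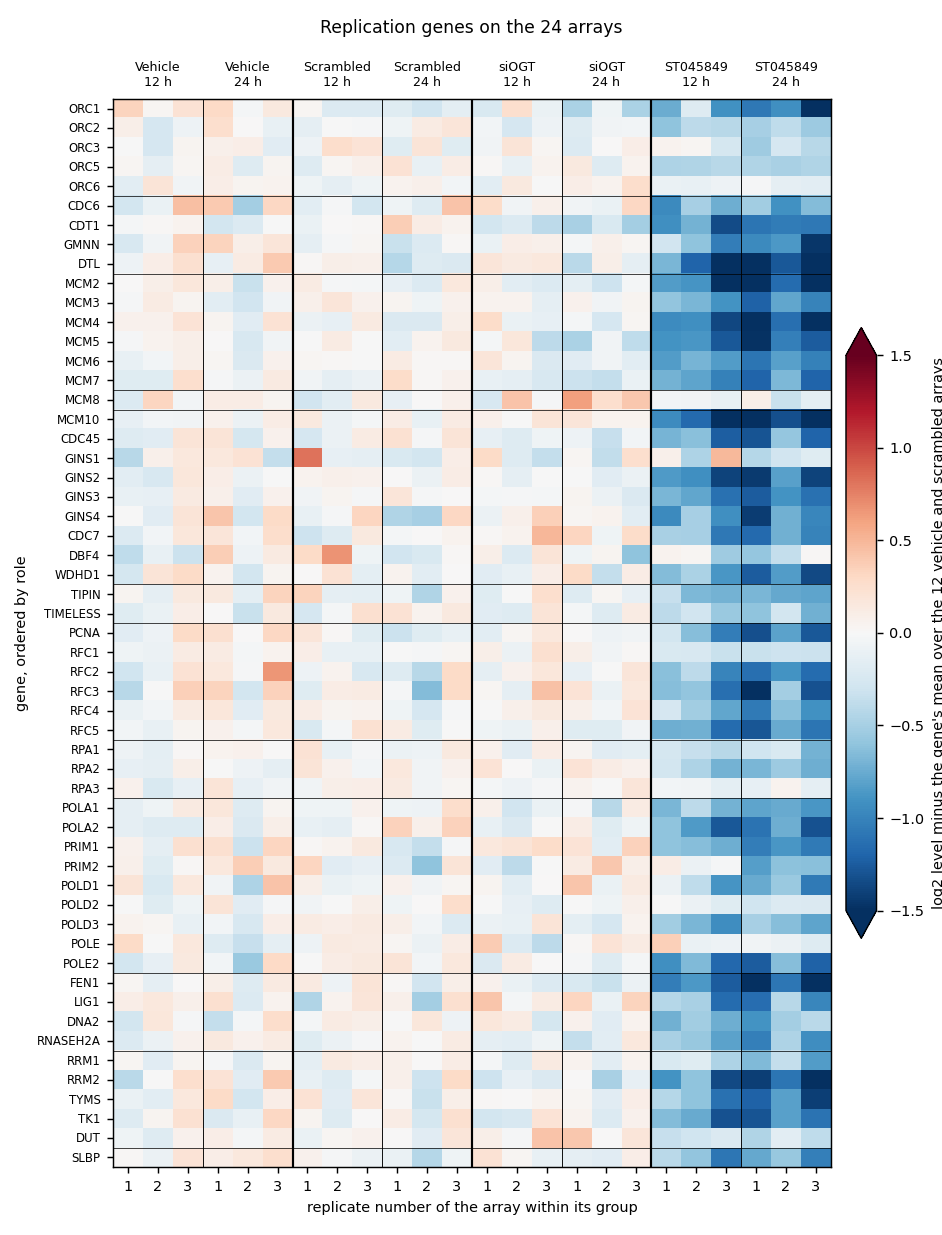
Colour gives each gene's log2 level on each of the 24 arrays minus its mean over the 12 vehicle and scrambled arrays, with genes in rows by role and arrays in columns by group and replicate. The 6 ST045849 columns are blue down most rows, deepest in replicate 3 at 12 hours and replicates 1 and 3 at 24 hours, while the siOGT columns stay near the controls.

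The origin recognition complex, which marks origins, was uneven. Of its 5 members in the set, 3 fell at 12 hours and 4 at 24 hours. ORC4, a further subunit in the list of other replication genes below, was detected on 5 of 24 arrays. It was not called, at 0.02 at 12 hours (limma adjusted p = 0.975) and -0.33 at 24 hours (adjusted p = 0.336). ORC1 encodes the largest subunit, whose protein is known to be degraded in S phase. Its log2 level at 24 hours was 6.54, 6.21 and 6.40 with vehicle, and 5.18, 5.33 and 4.63 with ST045849. At 12 hours it was 6.58, 6.27 and 6.47 with vehicle, and 5.50, 6.05 and 5.34 with ST045849. The groups did not overlap at either time, and the ST045849 arrays at 24 hours were the lowest. The change of ORC1 was -0.81 ± 0.18 (SE) at 12 hours (limma adjusted p = 0.00752) and -1.34 ± 0.18 at 24 hours (adjusted p = 3.96e-05). At 24 hours the ORC1 probe was detected on 0 of 3 ST045849 arrays, so that the level was at least 1.92-fold lower than with vehicle. Without background correction its changes were -0.33 and -0.50, both called. Without ST045849 replicate 3 the 12-hour change of ORC1 was -0.67 and was not called (limma adjusted p = 0.0585). ORC2 and ORC5, core subunits, fell by less on the probes that stand for them, to 69.4% and 73.1% of vehicle at 24 hours. A second, dimmer ORC5 probe changed by -0.81 ± 0.19 at 12 hours and -0.86 ± 0.19 at 24 hours. Its adjusted p over all probes was 0.00343 at 24 hours, and the brightest probe changed by -0.45 there. ORC3 was at 101% of vehicle at 12 hours, where it was not called, and fell to 75.8% at 24 hours. The 24-hour call of ORC3 was made in only 11 of the 18 settings described below.

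ORC6, the smallest subunit, gave different values on its 2 probes. On the bright probe, which stands for the gene, vehicle arrays at 24 hours were at 14.09, 14.03 and 14.04 and ST045849 arrays at 13.98, 13.86 and 13.83. The groups did not overlap but lay close together, and the change of -0.16 (95% interval -0.36 to 0.03) was not called (limma adjusted p = 0.222). Averaged over its probes, ORC6 changed by -0.84 at 24 hours and was called (limma adjusted p = 4.18e-06). On the second, dimmer probe ORC6 changed by -1.07 ± 0.16 at 12 hours and -1.52 ± 0.16 at 24 hours, with an adjusted p over all probes of 2.07e-06 at 24 hours. The mean log2 level was 13.99 on the first probe and 8.12 on the second. Which probe measures the gene was not tested, and the probe sequences were not used here.

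All 4 members that load the helicase or control its loading fell at both times. CDT1, the loading factor, dropped to 49.9% of vehicle at 12 hours and 53.1% at 24 hours. GMNN encodes geminin, the inhibitor of CDT1, and fell to 63.3% and 40.8%. DTL is the substrate receptor of the CUL4 ubiquitin ligase that destroys CDT1 in S phase. Its level at 24 hours was 7.16, 7.41 and 7.68 with vehicle and 5.77, 6.02 and 5.63 with ST045849. At 12 hours it was 7.21, 7.39 and 7.53 with vehicle and 6.61, 6.09 and 5.73 with ST045849. The highest ST045849 array lay below the lowest of the 18 other arrays, at 6.86. DTL changed by -1.23 ± 0.17 at 12 hours and by -1.61 ± 0.17 at 24 hours, which is 32.7% of vehicle (limma adjusted p = 1.98e-06). Without background correction the changes of DTL were -0.65 and -0.83, both called.

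CDC6, the ATPase that loads the helicase together with ORC, was dim. Its probe was detected on 10 of 24 arrays and on 0 of 6 ST045849 arrays. Vehicle arrays were at 5.89, 4.99 and 5.81 at 24 hours and ST045849 arrays at 4.97, 4.59 and 4.85. At 12 hours the values were 5.22, 5.40 and 5.95 with vehicle and 4.54, 5.0 and 4.77 with ST045849. The groups did not overlap at either time, although vehicle replicate 2 at 24 hours lay next to the highest ST045849 array. The fitted change was -0.75 ± 0.22 at 12 hours (limma adjusted p = 0.0303) and -0.76 ± 0.22 at 24 hours (adjusted p = 0.0147). Taken as a bound, the fall of CDC6 was 1.08-fold at 12 hours and 1.09-fold at 24 hours. The probe was detected on only 1 of 3 vehicle arrays at 12 hours and 2 of 3 at 24 hours. The vehicle means thus include undetected values, and neither bound is firm. Its call was lost at 12 hours without ST045849 replicate 1 (-0.64), without vehicle replicate 3 (-0.54) or without ST045849 replicate 3 (-0.75). At 24 hours it was lost without vehicle replicate 1 (-0.60), without ST045849 replicate 2 (-0.65) or without vehicle replicate 3 (-0.64). With only the compared groups in the fit it was lost at both times (adjusted p = 0.0653 and 0.0531), and at 12 hours also without a detection filter (0.0528). Without background correction the changes were -0.25 and -0.26, both called.

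The 6 subunits of the MCM2-7 helicase fell together at both times, with changes of -0.77 to -1.19 at 12 hours and -0.83 to -1.48 at 24 hours. MCM4, which had the smallest p, was at 9.93, 9.72 and 10.11 with vehicle at 24 hours and at 8.27, 8.76 and 8.29 with ST045849. At 12 hours it was at 9.96, 9.95 and 10.10 with vehicle and at 8.94, 8.96 and 8.52 with ST045849. All 6 ST045849 arrays lay below every other array, the lowest of which was at 9.64. The level of MCM4 was 43.8% of vehicle at 12 hours and 35.9% at 24 hours (limma adjusted p = 1.58e-06). MCM7, which had the largest p of the 6, was at 11.97, 11.90 and 12.12 with vehicle at 24 hours and at 10.79, 11.32 and 10.79 with ST045849. At 12 hours MCM7 was at 11.81, 11.81 and 12.24 with vehicle and at 11.28, 11.19 and 10.98 with ST045849. Its groups did not overlap either, and it fell by 0.80 ± 0.14 at 12 hours and by 1.03 ± 0.14 at 24 hours (limma adjusted p = 2.71e-05). MCM2, MCM5, MCM6 and MCM3 were at 38.0%, 44.9%, 52.3% and 56.2% of vehicle at 24 hours. Second probes of MCM3, MCM4 and MCM7 changed by -1.14, -1.36 and -1.36 at 24 hours.

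MCM8, a helicase of the same family that acts with MCM9 in recombination rather than in licensing, was not called on its brightest probe. That probe read 11.80, 11.80 and 11.73 with vehicle at 24 hours and 11.77, 11.36 and 11.54 with ST045849. At 12 hours it read 11.48, 12.01 and 11.64 with vehicle and 11.65, 11.63 and 11.57 with ST045849. The groups overlapped at both times, and the change at 24 hours was -0.22 (95% interval -0.55 to 0.11, limma adjusted p = 0.332). A second MCM8 probe, at a mean log2 level of 6.82 against 11.72, changed by -0.64 ± 0.21 at 12 hours and -1.34 ± 0.21 at 24 hours (adjusted p over all probes 0.000182). Averaged over its probes, MCM8 changed by -0.78 at 24 hours and was called (limma adjusted p = 0.000489).

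Of the 9 members that fire origins and activate the helicase, 7 fell at both times. MCM10, which helps to convert the loaded ring into an active helicase, had the smallest p of all members at both times. It was at 8.99, 8.82 and 9.03 with vehicle at 24 hours and at 7.19, 7.60 and 7.20 with ST045849. At 12 hours MCM10 was at 8.79, 8.87 and 8.86 with vehicle and at 7.97, 7.75 and 7.30 with ST045849. The other 18 arrays spanned only 8.79 to 9.11. MCM10 fell to 44.6% of vehicle at 12 hours (limma adjusted p = 1.47e-05) and to 32.7% at 24 hours (adjusted p = 1.08e-07). GINS2, GINS3 and GINS4, subunits of the GINS ring that joins the helicase, fell to 43.0%, 47.6% and 44.0% of vehicle at 24 hours. CDC45, the helicase cofactor, was at 49.2%, and CDC7, the activating kinase, at 46.8%. WDHD1, which couples the helicase to polymerase alpha, was at 47.2%.

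The 2 members of this role that were not called were close to the detection limit. GINS1, the remaining GINS subunit, was detected on 3 of 24 arrays. It read 5.23, 5.29 and 4.72 with vehicle at 24 hours and 4.65, 4.78 and 4.88 with ST045849. At 12 hours GINS1 read 4.66, 5.15 and 5.23 with vehicle and 5.15, 4.61 and 5.55 with ST045849. These groups overlapped, the change at 24 hours had a 95% interval of -0.85 to 0.23, and no fold is given because the probe was not detected on any of those 6 arrays. DBF4, the activator of CDC7, was likewise detected on 3 of 24 arrays and not called.

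TIPIN and TIMELESS form the complex that keeps polymerase and helicase together at the fork. TIPIN was at 8.0, 7.71 and 8.19 with vehicle at 24 hours and at 7.16, 7.08 and 7.05 with ST045849. At 12 hours TIPIN was at 7.89, 7.72 and 8.0 with vehicle and at 7.50, 7.18 and 7.14 with ST045849. The groups did not overlap, and the level was 66.1% of vehicle at 12 hours and 54.8% at 24 hours (limma adjusted p = 0.00056). TIMELESS was at 10.13, 9.79 and 10.26 with vehicle at 24 hours and at 9.51, 9.84 and 9.40 with ST045849. At 12 hours TIMELESS was at 9.94, 10.02 and 10.22 with vehicle and at 9.73, 9.84 and 9.56 with ST045849. Its groups overlapped at 24 hours through replicate 2, which was in set 2 for both treatments. TIMELESS fell to 71.9% of vehicle at 24 hours (limma adjusted p = 0.0249) and was at 78.5% at 12 hours, where it was not called (adjusted p = 0.143). The 12-hour call of TIPIN was lost without ST045849 replicate 2 (-0.55), vehicle replicate 3 (-0.53) or ST045849 replicate 3 (-0.53), and with median scaling (limma adjusted p = 0.0669). The 24-hour call of TIMELESS was lost without vehicle replicate 1 (-0.44), ST045849 replicate 1 (-0.44), vehicle replicate 3 (-0.37) or ST045849 replicate 3 (-0.38), and with the compared groups alone (limma adjusted p = 0.0725). At 12 hours TIMELESS gained a call with the array set and its effect in the model (-0.45, adjusted p = 0.00252).

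The sliding clamp and all 5 subunits of its loader fell at 24 hours, and 4 of these 6 fell at 12 hours. PCNA fell to 63.2% of vehicle at 12 hours and 40.1% at 24 hours. RFC5, a small loader subunit, was at 10.10, 10.02 and 10.20 with vehicle at 24 hours and at 8.76, 9.29 and 8.94 with ST045849. At 12 hours RFC5 was at 10.00, 9.93 and 10.08 with vehicle and at 9.30, 9.32 and 8.89 with ST045849. The groups were far apart, and RFC5 fell to 56.1% and then 46.3% of vehicle (limma adjusted p at 24 hours = 1.24e-05). RFC1, the large subunit, moved least on the probes that stand for the genes. It was at 8.63, 8.47 and 8.56 with vehicle at 24 hours and at 8.17, 8.19 and 8.18 with ST045849. At 12 hours RFC1 was at 8.44, 8.41 and 8.63 with vehicle and at 8.28, 8.27 and 8.17 with ST045849. The ST045849 arrays lay below the vehicle arrays at both times, but the change of -0.26 ± 0.09 at 12 hours was not called (limma adjusted p = 0.0727), while RFC1 fell to 77.3% of vehicle at 24 hours (adjusted p = 0.00502). With the array set and its effect in the model RFC1 was called at 12 hours too (-0.29, limma adjusted p = 0.0173). A second, dimmer RFC1 probe changed by -0.61 ± 0.23 at 24 hours and was not called (adjusted p over all probes 0.0654). RFC2, RFC3 and RFC4 were at 39.9%, 39.7% and 53.1% of vehicle at 24 hours.

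RPA, the trimer that coats single-stranded DNA, was uneven. RPA2, the middle subunit, was at 10.72, 10.64 and 10.59 with vehicle at 24 hours and at 10.04, 10.17 and 9.98 with ST045849. At 12 hours RPA2 was at 10.60, 10.59 and 10.81 with vehicle and at 10.44, 10.26 and 10.02 with ST045849. It fell to 74.5% of vehicle at 12 hours and 66.7% at 24 hours (limma adjusted p = 0.000646). The 12-hour call of RPA2 was lost without vehicle replicate 3 (-0.36) or ST045849 replicate 3 (-0.31), and also with median scaling (limma adjusted p = 0.0514) or the compared groups alone (0.11). RPA3, the small subunit, was at 11.64, 11.32 and 11.40 with vehicle at 24 hours and at 11.32, 11.49 and 11.31 with ST045849. At 12 hours RPA3 was at 11.51, 11.22 and 11.33 with vehicle and at 11.40, 11.39 and 11.30 with ST045849. The groups overlapped at both times and RPA3 was not called, with a change at 24 hours of -0.08 (95% interval -0.28 to 0.12). RPA1, the large subunit, was called at 24 hours, at 73.0% of vehicle.

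Of the 9 polymerase and primase subunits in the set, 5 fell at 12 hours and 7 at 24 hours. PRIM1, the catalytic subunit of primase, was at 9.52, 8.96 and 9.60 with vehicle at 24 hours and at 8.24, 8.40 and 8.22 with ST045849. At 12 hours PRIM1 was at 9.34, 9.14 and 9.51 with vehicle and at 8.68, 8.64 and 8.54 with ST045849. All ST045849 arrays lay below all others, and PRIM1 fell to 61.0% and then 47.6% of vehicle (limma adjusted p at 24 hours = 3.96e-05). POLA1 and POLA2, of polymerase alpha, fell to 57.0% and 48.5% at 24 hours. In polymerase delta, POLD1 (catalytic) and POLD3 fell to 59.0% and 66.6% at 24 hours, whereas POLD2 was at 84.3% and was not called (adjusted p = 0.0804), although it was called lower in 5 of 18 settings (the one reported, 11 others with all arrays and 6 with 1 array left out). The subunits of polymerase epsilon differed from each other. POLE2 was called at both times, at 56.1% and 52.3% of vehicle. POLE, the catalytic subunit, was at 6.61, 6.45 and 6.66 with vehicle at 24 hours and at 6.75, 6.72 and 6.61 with ST045849. At 12 hours POLE was at 7.08, 6.80 and 6.96 with vehicle and at 7.15, 6.71 and 6.73 with ST045849. The groups overlapped at both times, and the change at 24 hours was 0.12 (95% interval -0.20 to 0.43, limma adjusted p = 0.608).

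All 4 members that process Okazaki fragments fell at both times. FEN1, the flap endonuclease, was at 11.54, 11.27 and 11.59 with vehicle at 24 hours and at 9.96, 10.37 and 9.92 with ST045849. At 12 hours FEN1 was at 11.48, 11.33 and 11.47 with vehicle and at 10.42, 10.60 and 10.21 with ST045849. It fell to 49.5% of vehicle at 12 hours and 38.3% at 24 hours (limma adjusted p = 8.07e-07), and a second FEN1 probe changed by -1.44 ± 0.16 at 24 hours. DNA2, a nuclease and helicase that trims long flaps, was at 6.06, 6.39 and 6.68 with vehicle at 24 hours and at 5.53, 5.91 and 6.01 with ST045849. At 12 hours DNA2 was at 6.14, 6.59 and 6.40 with vehicle and at 5.70, 5.90 and 5.68 with ST045849. Its groups did not overlap but nearly touched at 24 hours, and it fell to 65.5% and 67.9% of vehicle (limma adjusted p = 0.0162 and 0.013). The call of DNA2 at 12 hours was lost without vehicle replicate 2 (-0.50), vehicle replicate 3 (-0.60) or ST045849 replicate 3 (-0.57), and at 24 hours without ST045849 replicate 1 (-0.41) or vehicle replicate 3 (-0.41), and with the compared groups alone (limma adjusted p = 0.0671). Without background correction the changes of DNA2 were -0.26 and -0.24, both called. LIG1, the ligase that seals the nicks, and RNASEH2A, which removes RNA primers, were at 54.7% and 52.9% of vehicle at 24 hours.

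Among the members that supply deoxynucleotides, 3 of 5 fell at 12 hours and all 5 fell at 24 hours. RRM2, the small subunit of ribonucleotide reductase, was at 8.84, 8.46 and 9.02 with vehicle at 24 hours and at 7.22, 7.53 and 6.71 with ST045849. At 12 hours RRM2 was at 8.22, 8.62 and 8.88 with vehicle and at 7.73, 8.02 and 7.27 with ST045849. The change was -0.90 ± 0.22 at 12 hours (limma adjusted p = 0.0116) and -1.62 ± 0.22 at 24 hours (adjusted p = 3.1e-05), the latter being 32.5% of vehicle. The groups did not overlap at either time, and the 12-hour call of RRM2 was lost without vehicle replicate 3 (-0.75) or ST045849 replicate 3 (-0.70), and with the compared groups alone (limma adjusted p = 0.0538). RRM1, the large subunit of the same enzyme, was at 83.6% at 12 hours, not called, and fell to 67.9% at 24 hours. TYMS, thymidylate synthase, and TK1, the S-phase thymidine kinase, fell to 44.1% and 47.7% at 24 hours.

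DUT, the dUTPase that keeps uracil out of DNA, gave values of opposite sign on its probes. On the brightest, it was at 8.11, 7.98 and 8.13 with vehicle at 24 hours and at 7.55, 7.84 and 7.62 with ST045849. At 12 hours DUT was at 7.94, 7.81 and 8.06 with vehicle and at 7.65, 7.70 and 7.79 with ST045849. Within each time no ST045849 array reached a vehicle array, and DUT fell to 75.8% of vehicle at 24 hours (limma adjusted p = 0.0223). The other DUT probes changed by 0.43 ± 0.14 and -0.47 ± 0.14 at 24 hours, with adjusted p over all probes of 0.0398 and 0.0241. Averaged over its probes, DUT was not called at 24 hours (-0.15, limma adjusted p = 0.26, in a range of 0.00619 to 0.26 over all settings). On the brightest probe its call was lost without vehicle replicate 1 (-0.38), ST045849 replicate 1 (-0.34), vehicle replicate 3 (-0.37) or ST045849 replicate 3 (-0.37).

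SLBP, which binds the stem-loop of replication-dependent histone mRNAs and peaks in S phase, was at 10.05, 10.11 and 10.20 with vehicle at 24 hours and at 9.19, 9.39 and 8.93 with ST045849. At 12 hours SLBP was at 9.97, 9.87 and 10.16 with vehicle and at 9.55, 9.36 and 8.87 with ST045849. Treated and control arrays did not overlap, and SLBP fell to 59.9% and 51.7% of vehicle (limma adjusted p = 0.00353 and 0.000168). The 12-hour call was lost with the compared groups alone (limma adjusted p = 0.0525).

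**Figure D3:**
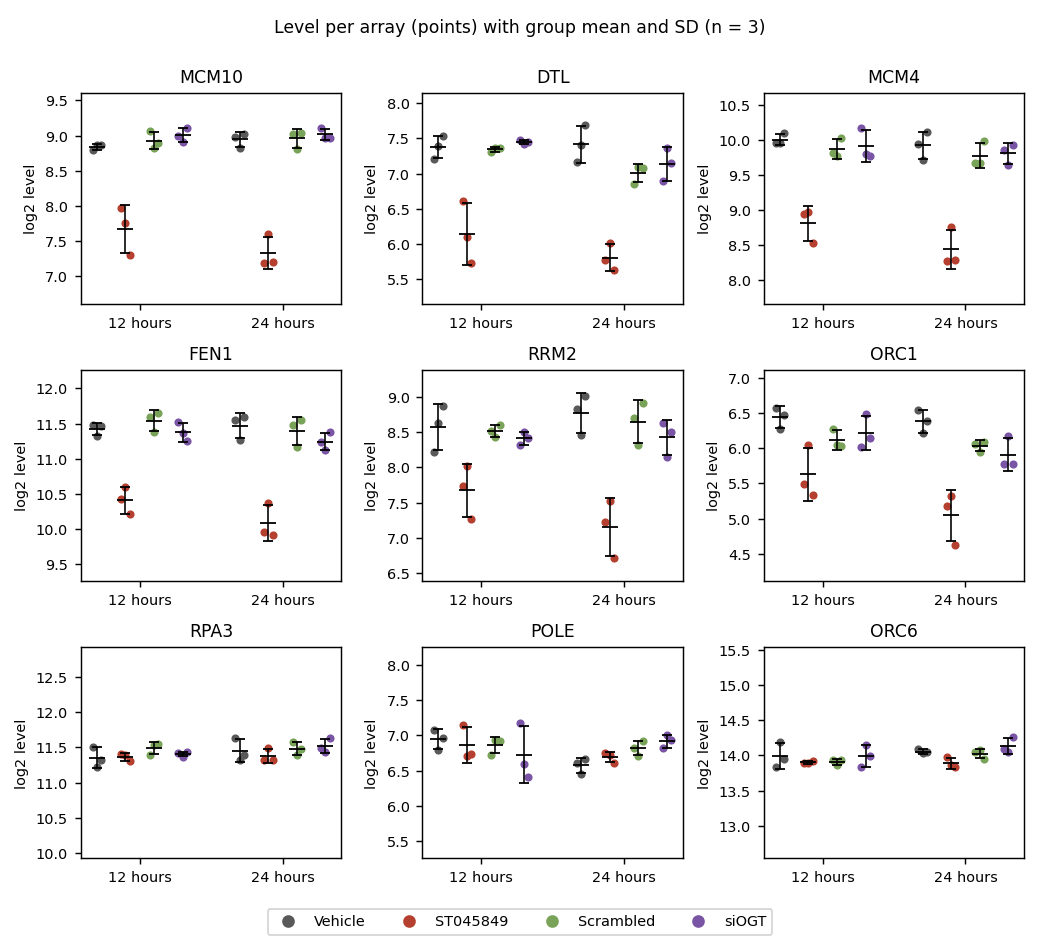
Each panel gives the log2 level of a gene on single arrays (points) with the group mean and SD (n = 3), by treatment and time, on axes of equal span within a row. MCM10, DTL, MCM4, FEN1, RRM2 and ORC1 are lowest with ST045849, whereas the groups of RPA3 and POLE overlap and those of the bright ORC6 probe lie close together.

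The 7 members not called at 24 hours were ORC6, MCM8, GINS1, DBF4, RPA3, POLD2 and POLE. For ORC6 and MCM8 another probe of the gene was called lower, and for GINS1 and DBF4 the signal was at the detection limit. RPA3, POLD2 and POLE were detected on all 24 arrays. In the 18 settings RPA3 and POLE were called lower in 0 and POLD2 in 5. A missed threshold does not show that these 3 levels were equal, and the lower ends of their 95% intervals at 24 hours were -0.28 for RPA3, -0.45 for POLD2 and -0.20 for POLE on the log2 scale.

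The platform carried 87 probes of the members, of which 78 passed the detection filter, and 20 members had more than 1 such probe. Of the 23 probes that did not stand for their gene, 22 were lower in value with ST045849 at 24 hours and 17 were called lower over all 17633 probes, of which 9.54% were called lower. Probe pairs of FEN1, MCM10, PRIM1, RFC3, RFC4 and SLBP gave changes of like size. PCNA changed by -1.32 and -0.92 on its brighter probes and by -0.34 on a probe detected on 10 of 24 arrays.

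**Figure D4:**
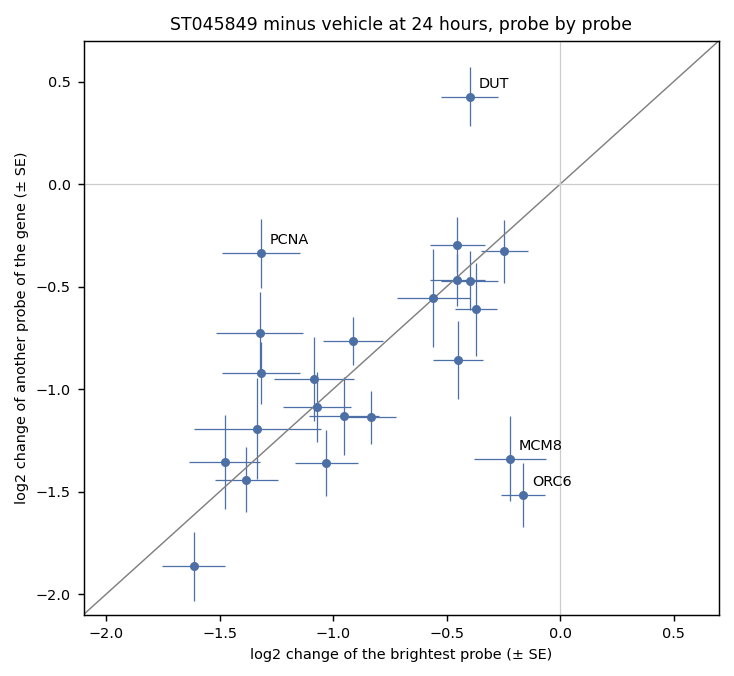
For members with more than 1 detected probe, each point sets the log2 change with ST045849 at 24 hours on another probe (vertical axis) against that on the brightest probe (horizontal axis), with standard errors as bars and the line of equality. ORC6 and MCM8 lie far below the line, both PCNA points lie above it, and the DUT points lie on either side.

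Of the 24 tested members with an E2F-type match, 21 were called lower with ST045849 at 24 hours, with a median change of -0.93. Of the 24 without, 21 were called lower with a median of -0.92, where 10.7% of all genes were lower. The 7 members with an E-box had a median of -1.03 (6 called lower) and the 41 without had -0.92 (36 called lower). With a CCAAT box 24 of 29 were called lower with a median of -0.87, and without it 18 of 19 with -0.95. With CHR letters 3 of 4 were called lower with a median of -0.50, and without them 39 of 44 with -0.94. Differences between these groups of members were not tested. The count called lower was thus the same with and without E2F-type letters in this 300-base window.

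A larger fall at 24 than at 12 hours was not called for any member. The change was more negative at 24 hours for 51 of 55 members, and the median difference was -0.24. By limma 0 members, and 0 of all genes, had a called difference, and 8 members had an unadjusted p under 0.05, all toward a larger fall, where 6.47% of all genes had such a p. When the set and its effect in each treatment were part of the model the median difference was -0.10 and again 0 members were called. The medians within the sets, as given above, were -1.07 and -1.11 in set 1 and -0.46 and -0.52 in set 2 at 12 and 24 hours. PRIM2, the regulatory subunit of primase, was 1 of the 8 members with such a p. It was at 6.02, 5.76 and 5.96 with vehicle and 6.05, 5.86 and 5.92 with ST045849 at 12 hours, so that those groups overlapped. At 24 hours PRIM2 was at 6.10, 6.32 and 6.09 with vehicle and at 5.12, 5.33 and 5.31 with ST045849, where it was detected on 0 of 3 arrays and was at least 1.65-fold lower. Because its probe was not well above background on those arrays, no size is given for its difference between the times, which was not called (limma adjusted p = 0.761).

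With knockdown of OGT no replication gene passed the test. By limma 0 of 55 members were called at 12 hours, at 24 hours or for the mean of both times, where 0.00967%, 0.0967% and 0.145% of all genes were called lower and 0%, 0.029% and 0.0483% higher. At an unadjusted p under 0.05 there was 1 member at 12 hours (4.29% of all genes), 6 at 24 hours (12.8%) and 6 for the mean of both (13.2%), the last being 3 lower and 3 higher. The median change was -0.04 at 12 hours, 0.01 at 24 hours and -0.03 for the mean. Among the members that fell most with ST045849, MCM10 was over both times of siOGT at 105% of scrambled (95% interval of the log2 change -0.13 to 0.27). DTL was at 108% of scrambled (-0.14 to 0.37) and RRM2 at 89.4% (-0.48 to 0.16).

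CDT1 came closest to a call with siOGT. It was at 8.73, 8.83 and 8.84 with scrambled and at 8.55, 8.62 and 8.43 with siOGT at 12 hours. At 24 hours CDT1 was at 9.19, 8.93 and 8.88 with scrambled and at 8.35, 8.60 and 8.32 with siOGT. The siOGT arrays lay below the scrambled arrays at both times, as they did for 3 members at 12 hours (4.76% of all genes) and 4 at 24 hours (9.32%). Over both times CDT1 changed by -0.42 ± 0.09, to 74.6% of scrambled, and missed the threshold (limma adjusted p = 0.0545). It passed in 6 of 11 other settings that kept all arrays, with an adjusted p between 0.0107 and 0.251. It also passed without siOGT replicate 2 at 24 hours (-0.47) or without scrambled replicate 3 at 24 hours (-0.45). The former array had the highest OGT level of the siOGT arrays, at 7.82. On the probes that stand for the genes, the largest value upward was that of MCM8, at 0.29 ± 0.11 (limma adjusted p = 0.26). The second MCM8 probe was at -0.07 over both times. The second ORC5 probe was at 0.38, against -0.03 on the brightest ORC5 probe.

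**Figure D5:**
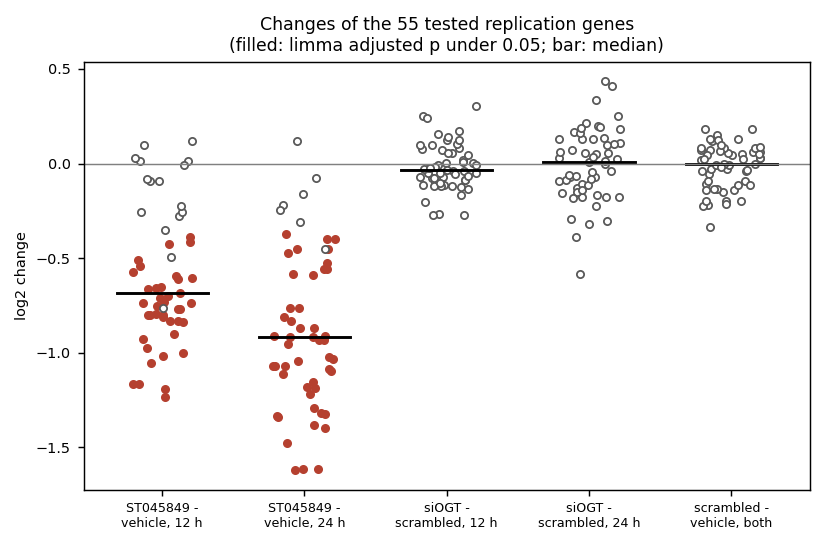
Each point is the log2 change of a replication gene in a comparison, filled where the limma adjusted p was under 0.05, and bars mark the median. The ST045849 points have medians of -0.68 and -0.92, and those of siOGT against scrambled and of scrambled against vehicle lie around 0 with none filled.

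The difference between inhibitor and knockdown was tested directly, as the mean ST045849 effect over both times minus the mean siOGT effect. It was called lower for 45 of 55 members and higher for 0, where 9.12% of all genes were lower and 11.7% higher, with a median of -0.74. In 34 members it was at least 1.5-fold (3.81% of all genes). MCM10 had the smallest p, with a difference of -1.46 ± 0.14 (limma adjusted p = 5.77e-07), and for DTL it was -1.54 ± 0.17 (adjusted p = 5.41e-06). The compound and the siRNA differ in how they reach the cells and in their controls. Scrambled siRNA against vehicle, over both times, gave 0 called members (0.058% of all genes lower and 0.0967% higher) and a median of 0.00, with an unadjusted p under 0.05 for 1 member (10.4% of all genes). That member was ORC1, at -0.33 ± 0.13 (limma adjusted p = 0.352).

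Replication genes beyond the 56 were counted in the same comparisons. A list of 39 further genes of fork restart, checkpoints, ribonucleotide handling and other subunits, ORC4 among them, had 32 tested. Of these, 11 were lower and 0 higher at 12 hours, and 13 were lower and 1 higher at 24 hours, with medians of -0.18 and -0.33. Of all genes 5.28% were lower and 5.73% higher at 12 hours, and 10.7% and 13.6% at 24 hours. Those with the smallest p at 24 hours were CHEK1, the S-phase checkpoint kinase (-1.32 ± 0.16), POLE3, a histone-fold subunit of polymerase epsilon (-0.60 ± 0.10), RIF1, which controls origin timing (-0.85 ± 0.15), and DCK, deoxycytidine kinase (-0.77 ± 0.14). The 1 gene called higher was POLD4, the smallest subunit of polymerase delta, at 0.71 ± 0.14 (limma adjusted p = 0.001). Genes of mitosis, the later phase of the cycle, were counted beside the replication genes: 3 of 20 were lower at 12 hours and 17 of 20 at 24 hours, against the same 5.28% and 10.7% of all genes, with medians of -0.57 and -0.93. CDK1, the mitotic kinase, changed by -1.46 ± 0.23 at 24 hours. Their part in the result, and that of the share of cycling cells, was not tested.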

How the data were processed

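Biotin-labelled total RNA of 24 LNCaP cultures was read on Illumina arrays, per the labels. For each array, the deposited raw table gave a probe intensity (linear scale, not normalized) and its detection p-value, per the file headers. Another deposited table, used as an alternative, gave intensity values that the authors had processed by a method that stays unknown. Its scale was linear and its 24 column medians ran from 116.356 to 116.393. The submitters' processing notes name GenomeStudio 2011.1 with no role.

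Intensities were background-corrected from the detection p-values, quantile-normalized and taken to log2 by neqc with an offset of 16 (limma 3.58.1 in R 4.3.3). Of 47323 probes, 17633 passed the filter, and 4010 of these had no single symbol in the platform annotation (30113 probes had 1 symbol, 8 several and 17202 none). The brightest probe stood for a gene. A limma fit of 8 group means over all 24 arrays gave each contrast, with eBayes and Benjamini-Hochberg adjustment over 10345 genes, and an adjusted p under 0.05 was called. The script was tested on simulated data. For a probe undetected throughout the dimmer group, a bound replaces the fold, taken on each dim array against the probe's level or the dimmest detected probe, whichever was higher. The number of arrays limits the precision. The offset draws changes of dim genes toward 0.

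Samples were grouped by title. The members, roles and lists were chosen with earlier results of these data known. The rule for named genes took, per role, the members of smallest and largest p with ST045849 at 24 hours, any member called in another comparison or against the majority, and the 4 further replication genes of smallest p. Any member could be named. MCM8 with siOGT, POLD4 and CDK1 were singled out after their values were seen. Same-numbered replicates of ST045849 and vehicle deviated little together (correlations of -0.0701 to 0.0888). Those of siOGT and scrambled were all positive (0.0506 to 0.274) and held the 3 of 12 pairs over 0.1. No pairing was used in the main fit. Arrays of a group correlated at 0.987 to 0.993 over the genes tested, and 0 pairs of arrays held identical values. Alternatives left out the background correction, scaled by medians, or used the authors' values, other filters, the mean over probes, array weights, a replicate block, array-set terms, compared groups alone or a fold threshold of 1.5. Each array was also left out in turn. Promoters came from RefSeq.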

Additional observations from a re-analysis of the deposited data

How the results depend on the processing

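Over 12 settings with all arrays, counts called with ST045849 were 26 to 44 at 12 hours and 38 to 50 at 24 hours. For inhibitor minus knockdown they were 34 to 48, and no member was called higher in the main setting. In the main setting 5.28%, 10.7% and 9.12% of all genes were lower in these comparisons. At the fold threshold of 1.5 the counts were 33, 38 and 34, where 1.98%, 4.64% and 3.81% of all genes were lower. Shares of all genes in the other settings with all arrays are not given here. Leaving out 1 array gave counts of 19 to 38, 43 to 48 and 43 to 46. The medians were then -0.74 to -0.54, -1.06 to -0.87 and -0.80 to -0.70. At 12 hours 2.17% to 4.49% of all genes were lower in those fits. Of the members, 17 were lower in all 18 settings at 12 hours and 38 at 24 hours, and ORC1 and PRIM2 were lower at 24 hours in each of the 17 settings that tested them. How many of all genes were lower in every setting was not counted. Without background correction and with the authors' values the medians were -0.41 at 12 hours, -0.58 at 24 hours and -0.51 for inhibitor minus knockdown. Median scaling gave -1.13 at 24 hours, -0.39 for the time difference and -0.95 for inhibitor minus knockdown, where the median of all genes stood at -0.14, -0.11 and -0.15. Median scaling moved RFC1 to -0.59 and DUT to -0.61 at 24 hours, both called. Relative to the shift of all genes the members were at -0.99, -0.28 and -0.80. With the array set and its effect in each treatment the time difference was -0.10, and leaving out 1 array gave -0.39 to -0.17. The cause was not tested. For siOGT, CDT1 alone was called, which made the count 1 at 24 hours without background correction and with the authors' values. For the mean of both times the count was 1 with those and with detection on all arrays, array weights, the set block or the set and its effect. Leaving out 1 array gave 0 to 1 in both. Signs turned for members that were not called: RPA3 at 12 hours was at -0.093 with median scaling and -0.024 with the set and its effect, POLE at 24 hours at -0.046 with median scaling, DUT at 12 hours at 0.015 as a mean over probes, and GINS1 at 12 hours at -0.015 with array weights. Leaving out 1 array, ORC6 ran from -0.17 to 0.0092, MCM8 from -0.21 to 0.058, GINS1 from -0.13 to 0.34 and RPA3 from -0.056 to 0.091 at 12 hours, and RPA3 from -0.14 to 0.016 at 24 hours. With the replicate number as a block, 39 members were called at 12 hours and 48 at 24 hours, and the block changed no call of a count reported here. Low signal limits CDC6, GINS1, DBF4 and PRIM2.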
